A study of Mus musculus with 4 samples.

Results

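The Tie receptor genes *Tek* and *Tie1*, the angiopoietin genes *Angpt1* and *Angpt2*, and *Ptprb*, which encodes the phosphatase VE-PTP, were followed across the vessel types of the mouse ear dermis. These 5 genes were taken by name, and all 5 were among the 46517 gene rows of the count tables. Tie2, the product of *Tek*, is a receptor tyrosine kinase of the endothelium. Angiopoietin-1, made largely by mural cells, activates it and stabilises the vessel, whereas angiopoietin-2, made mainly by endothelial cells, acts as a weaker and context-dependent ligand. Tie1 is a related receptor without a well-defined ligand of its own that pairs with Tie2, and VE-PTP is a transmembrane phosphatase that removes phosphate from Tie2 and binds VE-cadherin. Tie signalling is best known for holding the junctions of quiescent vessels closed and for the growth of lymphatic vessels.

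Single cells had been sorted as CD31+/CD45-/Lyve1- from the ears of adult female C57Bl/6 mice and sequenced by Smart-seq2, a full-length method without molecular identifiers. The labels give an age of 12 to 26 weeks, whereas the study's methods give a younger range. Each of 2 replicates came from a pool of 6 mice and was spread over 2 plates, A and B, of 384 wells. All samples therefore belong to one group, and the comparisons were made between classes of wells within it, with the replicate as the unit. Pooling means that no value can be assigned to a single mouse.

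Wells were classed without use of the 5 genes. Blood vascular endothelial cells (BECs) were clustered and named from markers, with 126 wells called artery-like, 168 capillary-like and 121 vein-like, while 286 further BEC wells took no name. The 415 named wells are referred to as named BECs. The unnamed wells held 222 and 2185 CPM of 7 summed lymphatic markers in replicates 1 and 2, against 72.1 and 119 CPM in named BECs, and stayed out of all tests. Wells with endothelial reads and at least 100 CPM (counts scaled to a common well total) of *Prox1* or *Lyve1* formed a lymphatic class of 158 wells. In these wells all 7 lymphatic markers were above the named BECs in both replicates, although the sort was meant to leave Lyve1+ cells out. Wells with at least 100 CPM of *Pecam1* and of a pericyte gene (*Pdgfrb* or *Kcnj8*) formed a mural-mixed class of 432 wells, and a further 50 wells held the pericyte genes with less than 100 CPM of *Pecam1*. The median mural-mixed well had 183604 reads in replicate 1 and 10247 reads in replicate 2.

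The replicates were not alike. The plates of replicate 1 held 74739095 and 63091443 reads and those of replicate 2 held 31864976 and 35546726. A read of *Pdgfrb* or *Kcnj8* was present in 99.7 to 100% of quality-filtered wells of replicate 1 and in 38.1 to 41.7% of those of replicate 2, and the 9 mural markers summed to 1337 CPM in named BECs of replicate 1 and 385 CPM in those of replicate 2. Of the lymphatic wells 13 came from replicate 1 and 145 from replicate 2, and of the mural-mixed wells 398 and 34. A read of *Lyve1* was present in 8.40 and 1.56% of quality-filtered wells on the plates of replicate 1 and in 37.9 and 60.9% on those of replicate 2. At least 100 CPM of *Prox1* was found in 12 lymphatic wells of replicate 1 and 67 of replicate 2, and the remaining lymphatic wells were called on *Lyve1* alone. Whether the mural reads of a well came from a second cell, from free RNA or from other wells was not tested, so mural-mixed names the reads found and not the cells. Values are therefore given for each replicate and plate.

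The receptor *Tek* (chromosome 4, 94739289 to 94874976, mm10, plus strand) was found at overlapping levels in artery-, capillary- and vein-like BECs. In artery-like wells its mean was 313 (plate A) and 410 CPM (plate B) in replicate 1 and 544 and 434 CPM in replicate 2. In capillary-like wells the plate means were 538, 397, 241 and 307 CPM in the same order. In vein-like wells they were 455, 396, 451 and 437 CPM, so that the 3 classes overlapped. Over all named BECs *Tek* reached 435 ± 2.73 CPM (mean ± SD, n = 2 replicates).

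In lymphatic wells *Tek* had plate means of 124 and 276 CPM on the plates of replicate 1 and 212 and 118 CPM on those of replicate 2, mostly below the BEC classes. The highest lymphatic plate exceeded the lowest BEC plate, so the groups were not fully apart. In mural-mixed wells *Tek* stood at 274 and 242 CPM in replicate 1 and at 42.8 and 67.9 CPM in replicate 2. Pericyte-gene wells with little *Pecam1* held 3.13 to 15.6 CPM, the lowest *Tek* level of any class on all 4 plates.

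*Tie1* (chromosome 4, 118471191 to 118490061, minus strand) did not follow *Tek* in the lymphatic wells. Its plate means there were 840 and 1704 CPM in replicate 1 and 385 and 336 CPM in replicate 2. Named BECs held 977 and 692 CPM on the plates of replicate 1 and 376 and 394 CPM on those of replicate 2. In replicate 1 the plates of the classes did not keep one order, and the 1704 CPM of plate B, from 4 wells, exceeded every BEC plate, whereas in replicate 2 the levels were close. The larger step was between the replicates, 812 against 385 CPM in named BECs. Among the BEC classes, artery-like wells spread the most, from 286 to 1457 CPM, against 427 to 788 CPM in vein-like wells and 225 to 967 CPM in capillary-like wells. Mural-mixed wells had 413, 377, 131 and 150 CPM, below every BEC class on each plate.

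*Ptprb* (chromosome 10, 116275523 to 116389535, plus strand) separated the named BECs from the lymphatic wells. In the same plate order, artery-like wells held 1361, 937, 1512 and 1548 CPM. Capillary-like wells held 1225, 1397, 705 and 1129 CPM and vein-like wells 595, 900, 633 and 1296 CPM. Lymphatic wells held 143, 83.4, 134 and 163 CPM, and every lymphatic plate lay below the lowest plate of a named class. The replicate 1 mean in lymphatic wells, 124 CPM, included 1 well of 1014 CPM and was 50.3 CPM without it, and plate B of that replicate held 4 wells. Unnamed BECs held 941, 859, 464 and 387 CPM, and their median well in replicate 2 had 64.1 CPM, near the 49.5 CPM of the lymphatic wells. In mural-mixed wells the means were 773 and 697 CPM in replicate 1 and 236 and 277 CPM in replicate 2.

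**Figure D1:**
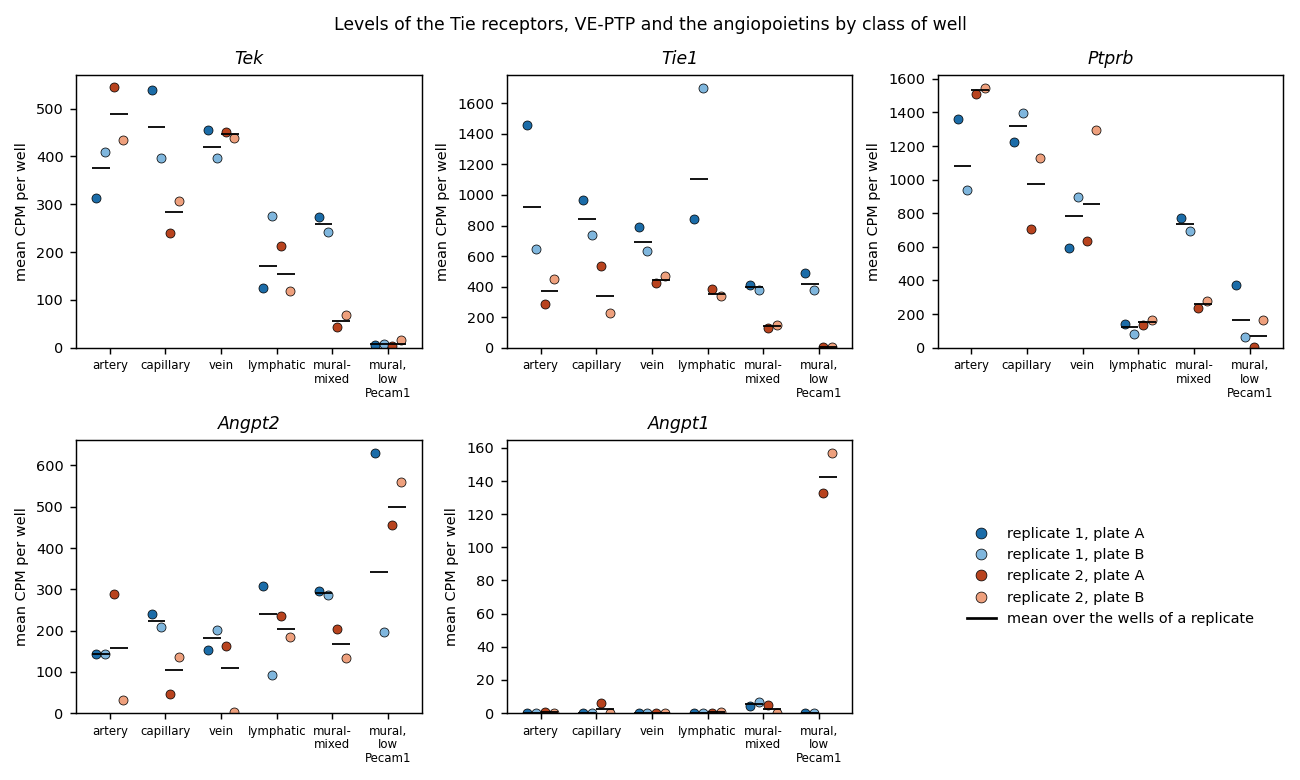
Mean CPM per well (linear axis from 0) of *Tek*, *Tie1*, *Ptprb*, *Angpt2* and *Angpt1* in 6 classes of wells; each point is a plate and each line the mean over the wells of a replicate. *Ptprb* lies at 83.4 to 163 CPM in lymphatic wells against 595 to 1548 CPM in the 3 named BEC classes, *Tie1* does not show that step, and *Angpt1* exceeds 10 CPM only in the pericyte-gene wells of replicate 2 that hold little *Pecam1*.

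For the tests counts were summed within each class and replicate. Sums were tested by the quasi-likelihood method of edgeR with replicate included as a blocking factor, and p-values were adjusted over all genes by the Benjamini-Hochberg method. A fold change of summed counts gives more weight to deeply sequenced wells than a mean of CPM does. In lymphatic wells *Ptprb* was 7.80-fold lower than in the mean of the BEC classes (log2 fold change -2.96, SE 0.33, adjusted p = 0.000788). The log2 value was -3.38 in replicate 1 alone and -2.60 in replicate 2 alone. *Ptprb* was the 1 of the 5 genes to pass, in a comparison in which 2.37% of 17342 genes passed in either direction and 0.951% were lower. It was also the 1 member whose lymphatic plate means did not overlap those of any of the 3 BEC classes taken separately, a pattern that 1.22% of the tested genes showed in that direction. Against the pooled named BECs *Tek* did not overlap either, with 118 to 276 CPM on lymphatic plates and 399 to 489.99 CPM on those of the BECs, as 11.8% of the tested genes did in that direction.

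Depth and mural reads also moved with this comparison. Lymphatic wells had a median of 117747 reads in replicate 1 and 36000 reads in replicate 2, and in wells thinned to 20000 reads the *Ptprb* difference was -2.92 (adjusted p = 3.89e-05). The 9 mural markers summed to 253 and 213 CPM in lymphatic wells of replicates 1 and 2, below the 1337 and 385 CPM of named BECs. Pericyte-gene wells with little *Pecam1* held 166 and 70.1 CPM of *Ptprb*, also below the BEC level. With the limit on non-BEC genes at 10 CPM in place of 100, 1 lymphatic well was left in replicate 1 and *Ptprb* missed the threshold at -2.56 (adjusted p = 0.146). The artery-, capillary- and vein-like classes of replicate 1 then held 2, 5 and 10 wells, and BECs were clustered at resolution 0.8 in place of 0.6. At that limit 311 genes were higher and 10 lower, against 246 and 165 at 100 CPM. With lymphatic wells called on *Prox1* alone the *Ptprb* value was -2.90 (adjusted p = 0.00111).

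The other members did not pass in lymphatic wells. *Tek* had a log2 difference of -1.12 (SE 0.42, adjusted p = 0.284) and *Tie1* one of 0.36 (SE 0.28, adjusted p = 0.694). *Angpt2* had a log2 difference of 1.02 (SE 0.40, adjusted p = 0.312), with 0.47 in replicate 1 alone and 1.54 in replicate 2 alone, and the value was -0.13 with the limit at 10 CPM. The endothelial gene *Pecam1* was itself lower in lymphatic wells (-1.61, SE 0.22, adjusted p = 0.00339), whereas *Cdh5*, which encodes VE-cadherin, the partner of VE-PTP, had a value of -0.69 (SE 0.40, adjusted p = 0.554). *Pecam1* and *Cdh5* also served to admit wells to these classes.

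Between BEC classes no gene passed with edgeR, so 0% is the background for the members there. At an unadjusted p under 0.05 in edgeR's test there were 743 of 14926 tested genes between artery- and vein-like wells. Between capillary-like wells and the other classes there were 605 of 14926. Neither share is above the 0.05 that such a threshold passes by chance. DESeq2's Wald test called 338 and 232. *Ptprb* had the largest value of the 4 members tested between artery- and vein-like wells, a log2 difference of 0.75 (SE 0.29, adjusted p = 0.974), with 0.65 in replicate 1 alone and 0.84 in replicate 2 alone. *Tek* (0.35, SE 0.37), *Tie1* (0.35, SE 0.34) and *Angpt2* (0.23, SE 0.43) differed by about their standard errors or less. For capillary-like wells against the mean of the other classes the values were -0.22 for *Tek*, -0.38 for *Tie1*, 0.63 for *Angpt2* and 0.20 for *Ptprb*, with adjusted p-values of 0.970 to 0.975. In replicate 1 alone and replicate 2 alone the direction turned for *Tek* (0.11 and -0.58) and for *Ptprb* (0.47 and -0.0743). No member passed between BEC classes under any of the alternative settings.

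In mural-mixed wells the endothelial members had values below 0 and the angiopoietins above 0, yet none of the 5 passed, against a background of 0.444% of 17342 genes, all of them higher. The log2 difference from BECs was -1.52 for *Tek* (SE 0.44, adjusted p = 0.253), -0.99 for *Tie1* (SE 0.31, adjusted p = 0.312) and -0.71 for *Ptprb* (SE 0.28, adjusted p = 0.622). For *Angpt2* it was 1.22 (SE 0.40, adjusted p = 0.369). Without the replicate block 120 genes were called in place of 77, again with no member among them. With sums per plate, which count plates of the same pool as separate, *Tek* passed (-1.54, adjusted p = 0.0366). The values depended on the replicate, with *Tek* at -0.88 in replicate 1 alone and -2.35 in replicate 2 alone, *Angpt2* at 0.51 and 1.85, and *Angpt1*, at 3.74 in the fit (SE 1.99, adjusted p = 0.948), at 4.80 and 0.0117. Less RNA per cell and a smaller share of endothelial reads in a well cannot be told apart.

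**Figure D2:**
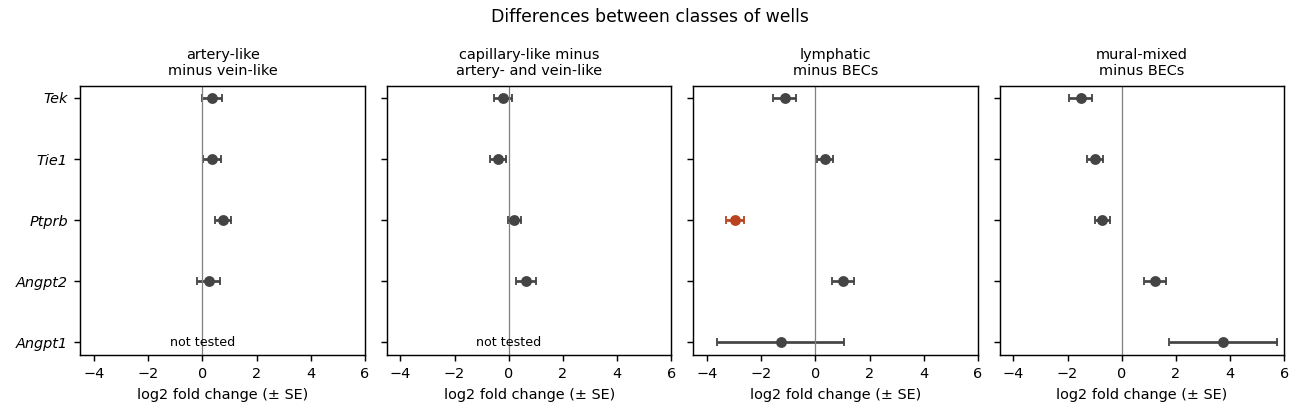
Log2 fold change of summed counts (points, with the standard error as bars) for each of the 5 genes in the 4 comparisons; red marks an adjusted p under 0.05 in edgeR's quasi-likelihood test. Only *Ptprb* in lymphatic wells is marked, at -2.96, and *Angpt1* was not tested between BEC classes because its counts were too low.

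The members were next compared with each other per length, as mean CPM divided by the union exon length in kb. In named BECs *Tek*, *Tie1* and *Ptprb* stood at 92.8, 165 and 84.8 CPM per kb in replicate 1 and 91.9, 78.3 and 91.3 CPM per kb in replicate 2. Among 58 receptor tyrosine kinases *Tie1* ranked first and *Tek* second in artery- and vein-like wells by the mean of the replicates. In capillary-like wells *Tie1* ranked 1, *Kdr*, the main VEGF receptor, 2 and *Tek* 3. These orders were not stable. In artery- and vein-like wells *Tek* ranked first in replicate 2 and *Tie1* in replicate 1, and in capillary-like wells the order was *Tie1*, *Tek*, *Kdr* in replicate 1 and *Kdr*, *Tie1*, *Tek* in replicate 2.

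Among 21 receptor-type tyrosine phosphatases *Ptprb* ranked first in each BEC class in both replicates, followed by *Ptprm*, which is found at cell contacts. In artery-like wells *Ptprb* stood at 98.0 and *Ptprm* at 41.0 CPM per kb, in capillary-like wells at 86.1 and 50.8, and in vein-like wells at 61.5 and 18.2. In lymphatic wells *Ptprb* ranked 4 by the mean of the replicates, with 10.4 CPM per kb, and ranked 5 in replicate 1 and 1 in replicate 2, so several phosphatases shared that low range there. *Tie1* was first among the kinases in lymphatic wells by the mean of the replicates, at 148 CPM per kb, followed by the lymphatic VEGF receptor *Flt4* at 82.7 CPM per kb, and *Tek* was at rank 5 with 34.5 CPM per kb. That order rests on the 13 wells of replicate 1, where *Tie1* had 225 and *Flt4*, at rank 4, 74.9 CPM per kb, whereas in replicate 2 *Flt4* was first with 90.5 and *Tie1* followed with 72.1 CPM per kb.

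The ratios between members were also computed for each class. The ratio of *Ptprb* to *Tek* per kb was 0.914 and 0.993 in named BECs of replicates 1 and 2 and 0.257 and 0.350 in lymphatic wells. Per plate it ranged from 0.107 to 0.488 in lymphatic wells and from 0.775 to 1.22 over all named BECs. The vein-like wells of plate A, at 0.462 and 0.496 in the 2 replicates, and the unnamed BECs of replicate 2, at 0.522 and 0.389, lay within or just above the lymphatic range. Over both plates, vein-like wells had ratios of 0.660 and 0.679, artery-like wells 1.02 and 1.11 and capillary-like wells 1.01 and 1.22. The ratio of *Tie1* to *Tek* was 6.20 and 2.21 in lymphatic wells and 1.78 and 0.851 in named BECs. Its lymphatic plates ranged from 1.74 to 6.48. Artery-like plate A of replicate 1, at 4.46, and capillary-like plate A of replicate 2, at 2.14, fell within that range. So did capillary-like plate B of replicate 1, at 1.78, and all named BECs of plate A of replicate 1, at 1.91. These ratios are descriptions and were not tested.

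The share of wells with a read of *Ptprb* was also higher in named BECs than in lymphatic wells. Each well was thinned to 20000 reads for this, which left out 12 of the named BEC wells and 53 of the lymphatic wells, all of replicate 2. A read of *Ptprb* was then present in 97.8% of named BEC wells of replicate 1 (95% exact binomial interval 94.9 to 99.3%, 226 wells) and in 87.0% of those of replicate 2 (81.1 to 91.6%, 177 wells). In lymphatic wells the shares were 53.8% (25.1 to 80.8%, 13 wells) and 57.6% (46.9 to 67.9%, 92 wells). Unnamed BECs had 92.8% (86.3 to 96.8%, 111 wells) and 59.8% (50.4 to 68.8%, 117 wells), so in replicate 2 their share was that of the lymphatic wells within the intervals. In pericyte-gene wells with little *Pecam1*, which should lack the gene, they were 33.3% (7.49 to 70.1%, 9 wells) and 14.6% (5.57 to 29.2%, 41 wells). The median depths before thinning were 146697 and 118322 reads in named BECs and 190468 and 165893 reads in these pericyte-gene wells. The intervals cover counting error only. Without thinning, all 226 named BEC wells of replicate 1 and 92.6% of those of replicate 2 had a read of *Ptprb*, as did 12 of 13 lymphatic wells and all 9 low-*Pecam1* wells of replicate 1, so the unthinned share did not set the classes of that replicate apart. In replicate 2 the unthinned shares of those classes were 66.2% and 48.8%.

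*Tek* was read at this depth in 73.0% of named BEC wells of replicate 1 and 58.8% of those of replicate 2, and in 46.2% and 38.0% of lymphatic wells. Vein-like wells of replicate 1 had the highest share, 84.6% (73.5 to 92.4%), against 62.5% (43.7 to 78.9%) in artery-like and 69.8% (61.1 to 77.5%) in capillary-like wells. In replicate 2 the shares were 60.7%, 63.6% and 42.4%, with overlapping intervals, and the vein-like wells were no longer highest. The background share in pericyte-gene wells with little *Pecam1* was 33.3% of 9 wells and 7.32% of 41 wells. *Tie1* was read in 85.8% and 51.4% of named BEC wells and in 76.9% and 69.6% of lymphatic wells. At 20000 reads these pericyte-gene wells had *Tie1* in 5 of 9 wells in the first replicate and 2 of 41 in the other, and their *Tie1* level was 417 CPM in replicate 1 and 2.37 CPM in replicate 2.

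The 3 genes were also counted together in each well. Whether they met more often than their separate shares would give was not tested. At 20000 reads, 61.9% of named BEC wells of replicate 1 and 28.2% of those of replicate 2 held a read of *Tek*, *Tie1* and *Ptprb*, and 0 of 226 and 5 of 177 held none (a count of 0 among 226 wells allows a share of up to 1.33%). Vein-like wells of replicate 1 reached 80.0%. Lymphatic wells held all 3 in 23.1% and 15.2% of wells. In replicate 2, 30 of the 41 pericyte-gene wells with little *Pecam1* held none of them.

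**Figure D3:**
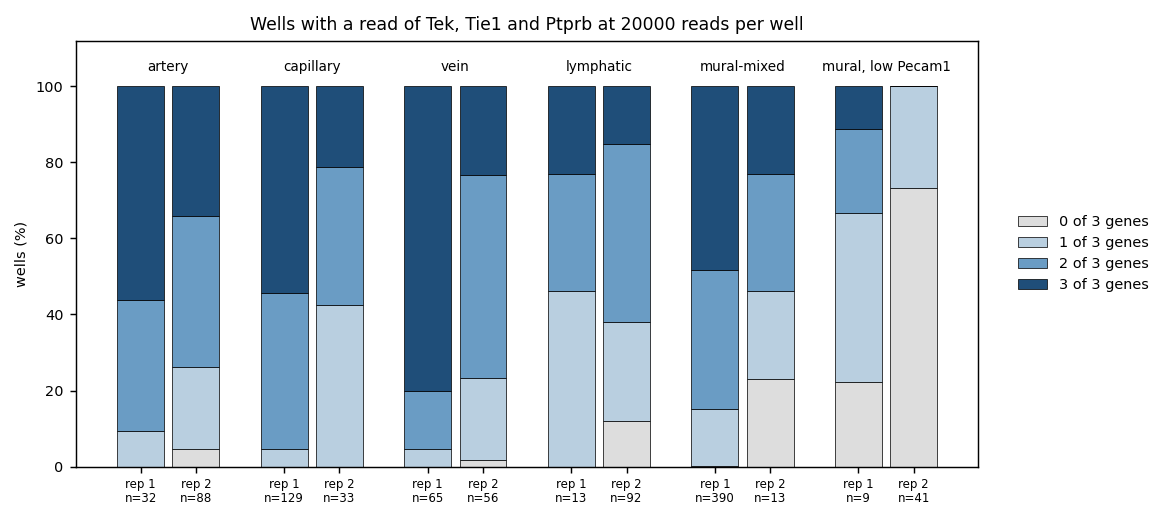
Share of wells (%, stacked to 100) with a read of 0, 1, 2 or 3 of *Tek*, *Tie1* and *Ptprb* after thinning to 20000 reads, by class and replicate (n, wells). Wells with all 3 reach 80.0% in vein-like wells of replicate 1, against 23.1% and 15.2% in lymphatic wells of replicates 1 and 2, and wells with none are the largest share in the low-*Pecam1* wells of replicate 2.

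*Angpt2* (chromosome 8, 18690263 to 18741562, minus strand) had uneven levels among wells. Without thinning, a read was present in 82.7% of named BEC wells of replicate 1 and 47.6% of those of replicate 2. In wells thinned to 20000 reads these shares were 39.4% and 26.6%. Thinned lymphatic wells had 69.2% and 30.4%, and mural-mixed wells 59.7% and 61.5%. Pericyte-gene wells with little *Pecam1* had 44.4% and 53.7% after thinning. Plate means over replicate 1 and then replicate 2 were 143, 143, 289 and 31.0 CPM in artery-like wells, 240, 208, 45.3 and 136 CPM in capillary-like wells and 153, 201, 163 and 3.60 CPM in vein-like wells. Lymphatic wells held 307, 91.5, 235 and 184 CPM and mural-mixed wells 296, 287, 203 and 134 CPM. The highest plate means were those of pericyte-gene wells with little *Pecam1*, 631, 197, 456 and 559 CPM, although plate B of replicate 1 was below several endothelial plates there.

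In named BECs the medians show how few wells carried these means. The median well of the named BECs held 13.9 CPM of *Angpt2* in replicate 1 and 0 CPM in replicate 2. It held 84.2 and 0 CPM in the lymphatic class and 99.6 and 0 CPM in the mural-mixed class. In pericyte-gene wells with little *Pecam1* the medians were 23.0 and 120 CPM. The top 10% of artery-like wells, rounded up to 4 of 32 wells in replicate 1 and 10 of 94 in replicate 2, held 93.0% and 96.1% of the summed CPM of that class. A single artery-like well of replicate 2 had 9764 CPM, and without it the mean of that class and replicate was 53.7 instead of 157 CPM. For *Ptprb* the top 10% of artery-like wells held 32.9% and 42.7%, the widest gap between both genes among the named BEC classes. In vein-like wells the top 10% held 49.3% and 72.7% of *Angpt2* and 27.3% and 36.1% of *Ptprb*. The order turned in lymphatic wells of replicate 1 (60.5% for *Angpt2*, 74.8% for *Ptprb*, 2 wells) and in low-*Pecam1* wells (36.4% and 69.5% in 1 well of replicate 1, 45.4% and 95.6% in 5 wells of replicate 2).

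A level of at least 100 CPM of *Angpt2* was reached in 9.38% of artery-like wells of replicate 1 (exact interval 1.98 to 25.02%) and 8.51% of those of replicate 2 (3.75 to 16.1%). In vein-like wells it was reached in 35.4% (23.9 to 48.2%) and 21.4% (11.6 to 34.4%), and in capillary-like wells in 25.6% (18.3 to 34.0%) and 17.9% (7.54 to 33.5%). Artery-like wells were the lowest in both replicates, but intervals of the classes overlap and the shares were not tested. Lymphatic wells reached 46.2% (19.2 to 74.9%) and 16.6% (10.9 to 23.6%), mural-mixed wells 50.0% and 23.5%, and pericyte-gene wells with little *Pecam1* 44.4% and 51.2%. *Angpt2* lies in introns of *Mcph1* on the other strand and shares no exon with it, and *Mcph1* was at 8.28 and 21.7 CPM in named BECs of the 2 replicates.

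**Figure D4:**
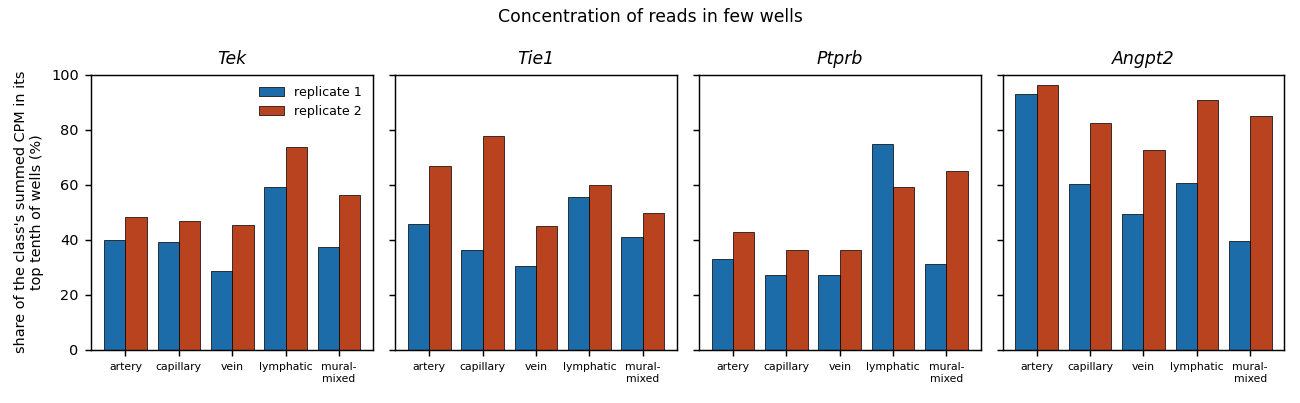
Share of the summed CPM of a class (%, from 0) held by its top 10% of wells (rounded up to a whole well), by class and replicate, for *Tek*, *Tie1*, *Ptprb* and *Angpt2*. *Angpt2* is the most concentrated in artery-like wells, at 93.0% and 96.1%, against 32.9% and 42.7% for *Ptprb*.

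*Angpt1* (chromosome 15, 42424723 to 42676977, minus strand), the activating ligand, was nearly absent from the endothelium. Named BECs held 5 reads of it in 226 wells of replicate 1 and 18 reads in 189 wells of replicate 2, and 0 of these wells reached 100 CPM. Lymphatic wells held 0 and 2 reads. In mural-mixed wells there were 481 reads in 398 wells of replicate 1, of which 8 wells reached 100 CPM, and 1 read in 34 wells of replicate 2. The wells that carried it were the pericyte-gene wells with little *Pecam1* of replicate 2, where 15 of 41 wells had a read (36.6%, exact interval 22.1 to 53.1%) and the plate means were 133 and 157 CPM. In replicate 1, 0 of 9 such wells had a read, which allows a share of up to 33.3%, so the difference between the replicates could not be resolved at that number of wells. These low-*Pecam1* wells also held 1622 and 3395 CPM of 6 summed fibroblast markers in replicates 1 and 2, against 309 and 157 CPM in named BECs. Their 9 mural markers summed to 16021 and 12458 CPM. Which cell type the *Angpt1* reads came from was not tested. One gene of the other strand, *Gm17473*, overlaps an exon of *Angpt1*, and an unstranded library does not tell their reads apart.

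The genes around Tie signalling were read from lists of other ligands, adaptors and PI3K-Akt genes, Foxo factors and their targets, integrins, partners of VE-PTP, sheddases and transcription factors. Of 48 listed genes 44 were tested in the lymphatic comparison and 2 were lower, a share of 4.55% beside the background of 2.37%, and 0 were higher. *Adam15*, a metalloprotease of the endothelial surface, had 13.9 and 93.5 CPM in lymphatic wells of the 2 replicates against 510 ± 187 CPM in named BECs (log2 fold change -3.81, SE 0.74, adjusted p = 0.0212). *Insr*, the insulin receptor and a known Foxo target, had 1.07 and 31.9 CPM against 125 ± 108 CPM (-4.15, SE 0.86, adjusted p = 0.0299). Capillary-like wells held 28.3 and 45.6 CPM of *Insr*, a range that includes the lymphatic value of replicate 2. Artery-like wells held 50.2 and 224 CPM and vein-like wells 87.7 and 271 CPM. In replicate 1 alone and replicate 2 alone the values were -5.74 and -2.87 for *Adam15* and -5.33 and -3.47 for *Insr*. Both lost the call with the limit at 10 CPM, at -2.83 (adjusted p = 0.397) and -1.63 (adjusted p = 0.961), and *Insr* lost it without the replicate block at -3.74 (adjusted p = 0.115). In the other 3 comparisons 0 listed genes passed.

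Within the lists the endothelial levels were uneven. The other ligands were close to 0, with *Svep1* at 1.83 ± 1.01 CPM in named BECs, *Angpt4* at 0.0280 ± 0.0396 CPM and *Lect2* without a read. Among the partners of VE-PTP, *Kdr* stood at 631 ± 33.7, *Cdh5* at 537 ± 60.2 and *Jup*, which encodes plakoglobin, at 391 ± 320 CPM. *Kdr* and *Cdh5* were also among the genes that decided which wells counted as endothelial, so their levels are partly set by that rule. The transcription factors were led by the flow-responsive *Klf2* (430 ± 5.22 CPM), *Ets1* (240 ± 114 CPM) and *Gata2* (168 ± 63.6 CPM). *Foxo1*, the factor that Akt keeps out of the nucleus, held 130 ± 46.1 CPM in named BECs and 423 and 173 CPM in lymphatic wells, and *Foxo3* 16.7 ± 3.95 and *Foxo4* 1.06 ± 0.770 CPM in named BECs.

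The adaptor and kinase genes were low, led by *Akt1* (79.6 ± 37.6 CPM), *Tnip2* (76.2 ± 23.9 CPM) and *Shc1* (67.4 ± 9.44 CPM). Of the integrins, *Itgb1* had 543 ± 193 CPM, *Itga5*, a subunit of the fibronectin receptor, 272 ± 5.85 CPM and *Itgb5* 15.3 ± 19.7 CPM. The sheddase list was led by *Adam15*, *Adam10* (189 ± 64.9 CPM) and *Adam17* (84.9 ± 32.8 CPM), and the Foxo targets by *Txnip* (1338 ± 288 CPM), *Insr* and *Sesn1* (49.5 ± 11.5 CPM).

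Genes whose levels followed those of a member were sought over the 10 sums of class and replicate by Pearson's r of log2(CPM + 1). *Ptprb* was most like *Pcdh1*, a protocadherin (r = 0.988), *Ifi203* (0.985) and *Ly6a*, which encodes Sca-1 (0.978). *Tek* was most like *Kdm3a*, a histone demethylase (0.952), *Bcl6b* (0.936) and *Skap2* (0.928), *Tie1* most like *Tbkbp1* (0.918), *Elmo1* (0.891) and *Zfp995* (0.891), and *Angpt2* most like *Ppp1r12b*, a myosin phosphatase subunit (0.926), *Gucy1b1*, a subunit of soluble guanylate cyclase (0.918), and *Loxl2* (0.916). Between members r was -0.874 for *Tek* and *Angpt2*, 0.557 for *Tek* and *Ptprb* and 0.376 for *Tek* and *Tie1*. The sums share plates and mice and the genes were picked as the highest of all, so r is a description without a test.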

How the data were processed

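Each deposited table held raw read counts, with genes in rows and wells in columns. The authors aligned Smart-seq2 reads to mm10 with TopHat2 2.1.1, removed duplicates with SAMtools 0.1.18 and counted with Subread 1.4.6-p5, per the labels; the annotation release and strand setting are not given in the sources used here. Removal of duplicates without molecular identifiers limits the counts of abundant short genes. The 92 spike-ins, 0.268 to 2.56% of a plate's reads, stayed out of totals and tests. Symbols, lengths and positions came from GENCODE vM21, which matched 46005 of 46517 identifiers.

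Wells needed 600 reads, 500 to 8000 genes and, for endothelial classes, a read of 2 of *Pecam1*, *Cdh5* and *Kdr*. BECs had less than 100 CPM of *Lyve1*, *Prox1*, *Ptprc*, *Pdgfrb* and *Kcnj8*. Doublets were not called apart from the gene limit. BECs were clustered (scran 1.30.0 size factors, Leiden, resolution 0.6) without the members and pathway genes; the resolution rule was set after clusters were seen. A cluster was named with at least 3 markers 1.25 times higher in each replicate. The 5 genes and all lists were chosen with earlier results of these data known.

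Counts were summed per replicate and class (6 sums for BEC comparisons, 10 for the others). Genes needed a count of 10 in 2 sums. edgeR 4.0.16 (TMM, quasi-likelihood, replicate block) was the test; DESeq2 1.42.0 and limma 3.58.1 were alternatives, and the edgeR step was tested on simulated data. Same-replicate sums come from the same pool of mice and deviated together (r = 0.106 to 0.124). The replicate block takes up the mean difference between the 2 pools. The p-values therefore rest on how far the differences between classes varied from pool to pool, with the spread shared over classes and genes. Named genes were the members, the 3 highest and any passing gene of each pathway list, the 3 most alike and the 3 highest relatives per kb.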

Additional observations from a re-analysis of the deposited data

Results flagged for a closer look

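Plate means of the 5 genes in each class were checked for 1 plate far from the other 3 (by Dixon's ratio of the gap to the range), and 5 of 40 sets met this; about 1 in 20 would by chance. *Angpt2* in named BECs was 53.9 CPM on plate B of replicate 2, against 196 to 206 CPM on the other plates. Plate A of replicate 2 held the artery-like well of 9764 CPM, and without it that plate was at 106 instead of 206 CPM, so that plate B no longer stood apart. The remaining 4 concern *Angpt1* at levels near 0. It was 6.14 CPM in capillary-like wells and 1.26 CPM in all named BECs on plate A of replicate 2. Both sets hold the same capillary-like well of 86.0 CPM, so they are not separate. Without it, capillary-like wells of replicate 2 were at 0 CPM and the named BECs of that plate at 0.379 CPM. On plate B of replicate 2 it was 1.5 CPM in unnamed BECs and 0.594 CPM in lymphatic wells.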

How the results depend on the processing

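*Ptprb* was lower in lymphatic wells under all 15 alternatives and passed in 12 of the 13 that had a test, the exception being the limit at 10 CPM (-2.56, adjusted p = 0.146), which left 1 lymphatic well in replicate 1. Leaving out a replicate, which allows no test, gave -3.38 to -2.60. Without the replicate block it was -2.94, and the block changed no member's call. The lower resolution, *Prox1* alone and leaving out the highest well were chosen after seeing the data. DESeq2's size factors moved the median of all genes in the lymphatic comparison from -0.12 to 0.03.

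Counts of genes called moved more than any member's call. Every value given for the limit at 10 CPM also comes from BECs clustered at resolution 0.8 in place of 0.6, because the resolution was chosen anew for those wells. The limit and the resolution cannot be told apart there. Between artery- and vein-like wells 0 became 6 with the limit at 10 CPM, 3 at 300 CPM, 338 with DESeq2's Wald test, 28 without the filter, 12 with sums per plate, 2 with limma and 13 after thinning. For capillary-like wells 0 became 2 with the limit at 10 CPM, 232 with the Wald test, 10 without the filter, 2 with sums per plate and 4 after thinning. For lymphatic wells 411 became 1560 with the Wald test, 889 without the filter and 721 with sums per plate. For mural-mixed wells 77 became 418 with the limit at 10 CPM, 122 with DESeq2's size factors, 501 with the Wald test, 340 without the filter, 120 without the replicate block, 380 with sums per plate, 32 with limma and 201 after thinning.

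Some values that passed in no setting changed sign. Between artery- and vein-like wells these were *Angpt2* at 10 CPM (-3.31), from marker scores (-0.20) and at the lower resolution (-0.37), *Tek* at 300 CPM (-0.20) and with limma (-0.0121), and *Tie1* from marker scores (-0.0603). The value of -3.31 rests on 2 artery-like and 10 vein-like wells in replicate 1, and on 37 and 84 in replicate 2. For capillary-like wells they were *Tek* at 300 CPM (0.18), after thinning (0.0436) and at the lower resolution (0.0433), with -0.58 to 0.11 over the replicates left out, and *Ptprb* at 10 CPM (-0.27), with -0.0743 to 0.47 over the replicates left out. In lymphatic wells it was *Angpt2* at 10 CPM (-0.13). The causes were not tested.

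Levels in named BECs moved beyond the SD of the replicates as follows. *Tek* became 446 CPM with scran size factors, 492 and 400.4 CPM with the limits at 10 and 300 CPM, 420.3 CPM without the highest well and 416 to 462 CPM with 1 plate left out. *Angpt2* became 352 CPM at 10 CPM. *Ptprb* became 1262 CPM with scran size factors, 987 CPM at 10 CPM, and 1095 to 1256 CPM with 1 plate left out. The mean share of wells with a read went from 82.8 to 65.9% after thinning and to 65.0% when a gene needed 3 reads for *Tek*, from 65.2 to 33.0% and 30.8% for *Angpt2*, and from 2.69 to 0.786% and 0.265% for *Angpt1*.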
